A study of Rattus norvegicus with 97 samples.

Results

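The comparison of AA with ANA rats covered the 20 arrays whose titles name the line pair AA.ANA, out of 97 arrays in the series. AA ("Alko, Alcohol") rats come from a line selectively bred for voluntary alcohol drinking and ANA ("Alko, Non-Alcohol") rats from a line bred in parallel for alcohol avoidance. There were 10 arrays labelled AA (alcohol preference Pr) and 10 labelled ANA (alcohol preference NPr), 1 array per animal, all from RNA of the nucleus accumbens shell. The labels give no allele, treatment, age, sex or alcohol exposure for either line. Each line is 1 breeding population, so the spread between animals is not the spread between independently bred lines. The other 77 arrays came from the 4 line pairs P/NP, HAD1/LAD1, HAD2/LAD2 and sP/sNP of the same design, and they enter below as a check of labels and as a contrast. The comparison asks which genes of this region differ between rats bred for high and for low alcohol intake.

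The shell of the nucleus accumbens is the ventromedial part of the striatum. Most of its neurons are medium spiny neurons, GABA-releasing cells that carry dopamine D1 or D2 receptors and opioid peptides, and they integrate dopamine from the ventral tegmental area with glutamate from cortex, hippocampus and amygdala. Dopamine release in the shell and the response of its neurons are classically tied to reward, including that of alcohol. Histamine, kynurenine metabolites, neuropeptides and the transcription factor CREB act on the same circuit.

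Values are log2 signals as deposited, in which 1 unit is a doubling. Differences are AA minus ANA on that scale, each with its standard error. A probe set was called when its adjusted p from limma was under 0.05 (Benjamini-Hochberg over 31042 probe sets). Array medians of the 20 arrays ran from 7.89 to 8.02. Markers of the medium spiny neuron were bright in all 20 arrays, with list means between 11.35 and 13.04, whereas the cortical marker mean was 5.34 to 6.05 in 19 of them. The array labelled AA 17 stood apart at 8.20: Neurod6 was at 9.75 against 4.71 to 5.4 in the other 19, Slc17a7 at 8.61 against 5.28 to 6.61 and Fezf2 at 9.26 against 6.16 to 7.16, but Tbr1 was at 5.16, within their 4.7 to 5.4. No 2 arrays had identical columns, and the most similar pair among the 20 correlated at 0.9973 across probe sets.

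Animals AA 19 and ANA 20 did not group with their own lines. AA 19 correlated across probe sets at a mean of 0.9949 with the sP arrays and 0.9795 with the other AA arrays, and its closest array was sP 8 at 0.9966. ANA 20 correlated at a mean of 0.9959 with the sNP arrays and 0.9864 with the other ANA arrays, and its closest array was sNP 5 at 0.9974. Each of the other 18 arrays had an AA or ANA array as its closest. Mean correlations parted the lines less: AA 5 was at 0.9885 with AA and 0.989 with ANA, and AA 13 at 0.9931 with both. The 375 probe sets without overlap between the other 9 AA and 9 ANA arrays were each scaled from 0 at the ANA mean to 1 at the AA mean. As the median over these probe sets, AA 19 lay at 0.391 and ANA 20 at 0.482. The sP arrays lay at 0.334 to 0.478 and the sNP arrays at 0.397 to 0.53 on this scale, on which the other AA and ANA arrays are near 1 and 0 by construction. On 152 probe sets that part sP from sNP, scaled from 0 at sNP to 1 at sP, AA 19 was at 1.06 and ANA 20 at -0.0298, against 0.19 to 0.526 in the other AA and 0.134 to 0.556 in the other ANA arrays. The Affymetrix Gapdh 3' minus 5' value, a measure of RNA integrity and labelling, was 0.54 in AA 19 and 0.40 in ANA 20 and no higher than 0.21 in the others. No array was moved or relabelled, the libraries keep the names on their labels, and results are given with all 20 arrays and with the other 9 against 9.

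With all 20 arrays, 728 of 31042 probe sets were called (2.35%), of which 341 were higher in AA (1.1%) and 387 lower (1.247%). With 9 against 9, 1378 were called (4.44%), 659 higher (2.123%) and 719 lower (2.32%), and 718 probe sets were called in both fits, all with the same sign. Called differences were mostly modest: their median size was 0.47 with all arrays and 0.39 with 9 against 9, and 130 of the 1378 reached 2-fold, 68 higher and 62 lower. The median difference over all probe sets was -0.0039 and -0.00532. In 48 called probe sets (0.155%), 24 in each direction, the lowest of the 10 arrays of 1 line lay above the highest of the other line. In 9 against 9 this held for 375 (1.208%), 184 higher and 191 lower in AA. One index of tissue composition and 1 of RNA quality were tested, and neither passed the threshold: the spiny neuron minus pallidal, septal and basal forebrain marker index differed by 0.13 with 10 against 10 (permutation test, two-sided, p = 0.672, adjusted 0.91) and by 0.30 with 9 against 9 (exact permutation test, two-sided, p = 0.323, adjusted 0.646), and Gapdh 3' minus 5' by 0.006 (p = 0.91) and -0.009 (exact permutation p = 0.77). Single markers of glia that were called, among them Gfap, are given with the cell type markers. In whole tissue, fewer cells of a type and less RNA per cell cannot be told apart.

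The gene lists were read with 1 probe set per gene, the brightest over the 20 arrays. With all arrays 0.83% of 14217 genes were called higher and 0.985% lower, and in 9 against 9 the shares were 1.7% and 2.1101%. These shares are the background for every count of list members called, and no list was tested as a set. Counts at an unadjusted p under 0.05 have no share over all genes beside them. They cannot be read as an excess in a list. The median difference over all genes was -0.00509 in 9 against 9.

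**Figure D1:**
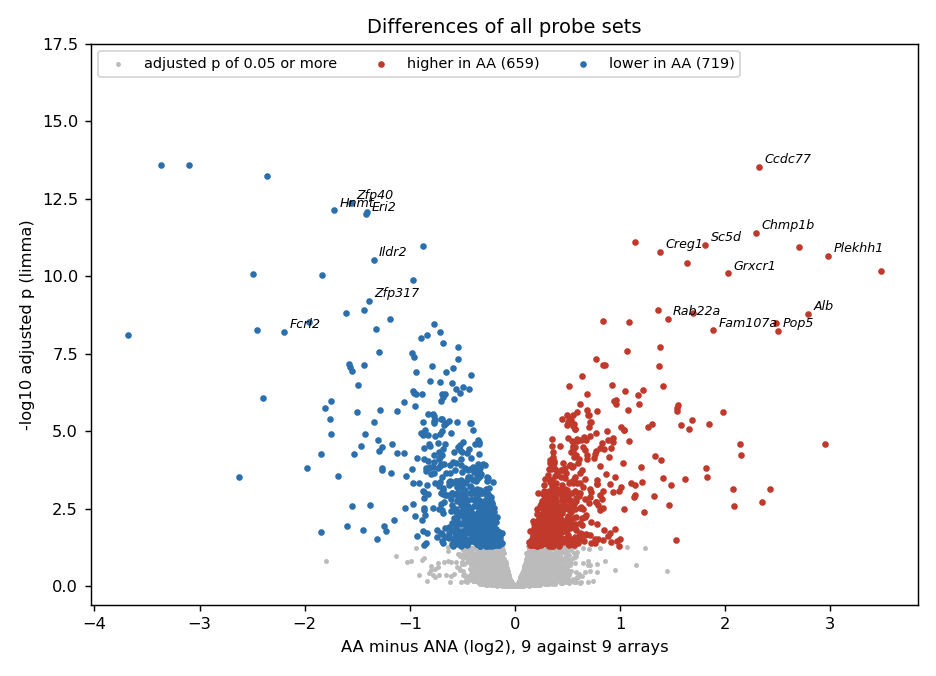
Each point is 1 probe set; the horizontal axis is the AA minus ANA difference (log2) in 9 against 9 arrays and the vertical axis the -log10 of the limma adjusted p. Red points were higher in AA (659), blue points lower (719), grey points not called, and names mark genes with the smallest adjusted p among those listed in the text.

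Hnmt, the methyltransferase that inactivates histamine in the brain, was lower in AA on 2 of 2 probe sets, 1 of them called in 9 against 9. On the called one, every AA array was lower than every ANA array. The level was 7.59, 7.77 and 9.03 (lowest, median, highest) in AA and 9.25, 9.45 and 9.78 in ANA. The 9.03 was AA 19; the next highest AA array stood at 7.97. The difference was -1.57 ± 0.13 with all arrays (2.96-fold lower, limma adjusted p 4.74e-07) and -1.72 ± 0.07 in 9 against 9 (3.29-fold lower, adjusted p 7.32e-13). Hnmt was the 1 called gene of 10 measured in the histamine list in both fits, beside background shares for lower genes of 0.985% with all arrays and 2.1101% in 9 against 9. Hdc, which makes histamine, differed by 0.08 (adjusted p 0.603), and Hrh1, Hrh2 and Hrh3, its receptors, by 0.01, 0.03 and 0.07 in 9 against 9 (adjusted p 0.848 to 0.969).

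Zfp40, a zinc finger protein gene, followed Hnmt in size among the named genes that were lower without overlap. It measured 9.26, 9.36 and 9.85 in AA and 10.01, 10.96 and 11.06 in ANA, where the lowest value was ANA 20 and the next lowest 10.8. AA was 2.67-fold lower with all arrays (-1.42 ± 0.11, limma adjusted p 1.37e-07) and 2.95-fold lower in 9 against 9. Zfp61, another zinc finger gene, was lower on all 3 of its probe sets. On the first, AA ran from 8.42 through 8.67 to 9.29 and ANA from 9.42 through 9.62 to 9.76. The difference on it was -0.91 ± 0.08 (adjusted p 4.74e-07), and on the others it was -0.64 and -0.82. Zfp956 and Zfp212, also zinc finger genes, were higher in AA without overlap, by 0.53 ± 0.07 (adjusted p 5.47e-05) and 0.47 ± 0.07 (adjusted p 0.000203); the other probe set of Zfp212 was called lower in 9 against 9, at -0.149.

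Chromatin enzymes were called in both directions. Kdm5b, a histone lysine demethylase, was at 9.18, 9.39 and 9.60 in AA and at 9.77, 9.92 and 10.10 in ANA. No AA array reached the lowest ANA array, and the difference was -0.52 ± 0.06 (limma adjusted p 1.88e-05). Kdm5b was lower in AA on 5 of 5 probe sets, of which 1 was called in 9 against 9. Hdac4, a histone deacetylase that shuttles between nucleus and cytoplasm in neurons, was at 8.61, 8.81 and 8.98 in AA and 7.87, 8.25 and 8.60 in ANA. The lines were barely parted, as ANA 20 stood at 8.60 while the other 9 ANA arrays did not pass 8.31. The difference was 0.55 ± 0.07 (adjusted p 8.28e-05). These were the 2 called genes of 25 measured histone deacetylases and demethylases, 1 in each direction, beside background shares of 0.83% higher and 0.985% lower with all arrays. Phf20, a reader of histone methylation, was higher in AA on 4 of 4 probe sets, 2 of them called in 9 against 9, and its separated probe set differed by 0.70 ± 0.08 (adjusted p 1.70e-05).

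Dcaf6, a substrate receptor of a ubiquitin ligase complex, was lower in AA on 4 of its 5 probe sets, all 4 called in 9 against 9. Its separated probe set ran from 9.27 through 9.69 to 10.08 in AA and from 10.17 through 10.34 to 10.57 in ANA (-0.69 ± 0.09, limma adjusted p 0.000118). Lyplal1, a lysophospholipase-like protein, was at 8.60, 8.82 and 9.20 in AA and 9.21, 9.44 and 9.53 in ANA. AA 19 alone came near the ANA range; without it and ANA 20 the highest AA array was 8.96. The difference was -0.61 ± 0.07 (adjusted p 9.00e-06), and -0.65 ± 0.06 in 9 against 9. Tti1, a cofactor that stabilises the kinases mTOR and ATM, differed by -0.41 ± 0.04 (adjusted p 8.34e-06). Aurkaip1, a protein of the mitochondrial ribosome, L3hypdh, a hydroxyproline dehydratase, and Clic5, a chloride intracellular channel protein, were lower without overlap by smaller amounts, with differences of -0.27, -0.41 and -0.19; the other probe set of L3hypdh was not called and had the opposite sign.

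On the higher side, Nsun4, a methyltransferase of the mitochondrial ribosomal RNA, measured 7.36, 7.76 and 8.03 in AA and 6.77, 6.92 and 7.13 in ANA. The AA arrays were all above the ANA arrays, by 0.81 ± 0.08 on average (limma adjusted p 1.97e-06), while the other probe set of Nsun4 was not called and differed by -0.02. Tifab, an adaptor-like inhibitor of TRAF signalling, stood at 7.02, 7.43 and 7.81 in AA and 6.34, 6.66 and 6.94 in ANA (0.78 ± 0.08, adjusted p 9.25e-06). P3h4, a collagen-modifying protein of the endoplasmic reticulum, was higher by 0.75 ± 0.11 (adjusted p 0.000217), with 3 of 5 probe sets called higher in 9 against 9. Phactr3, a regulator of actin and protein phosphatase, was higher by 0.74 ± 0.10 (adjusted p 9.58e-05), and here AA 19 was the highest of all arrays at 8.14. Tmco5a, a coiled-coil membrane protein, differed by 0.58 ± 0.08 (adjusted p 0.000209).

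Apba2, a neuronal adaptor that binds the amyloid precursor protein and the vesicle-fusion protein Munc18, was at 9.66, 9.88 and 10.10 in AA and 8.85, 9.37 and 9.57 in ANA. Both ends of the gap were set by arrays close to each other, 9.66 (AA 19) and 9.57, while ANA 20 was the lowest. The difference was 0.56 ± 0.08 (limma adjusted p 0.000112), and the other, dimmer probe set of Apba2 differed by -0.22 without a call. Gmps, the enzyme that makes GMP, was at 8.68, 8.87 and 9.11 in AA and 8.27, 8.48 and 8.68 in ANA, and the highest ANA value was ANA 20. Its difference was 0.39 ± 0.06 (adjusted p 0.000622). Tgfb2, a growth factor of the TGF-beta family, was at 8.30, 8.53 and 9.98 in AA and 7.77, 8.10 and 8.30 in ANA, so that the lines met at the second decimal. The 9.98 was AA 17, the array with cortical markers, and the next AA value was 8.73. With all arrays the difference was 0.62 ± 0.15 (adjusted p 0.03), in 9 against 9 it was 0.62 ± 0.16 (adjusted p 0.0309), and without AA 17 as well it was 0.46 ± 0.07 (adjusted p 0.000528).

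**Figure D2:**
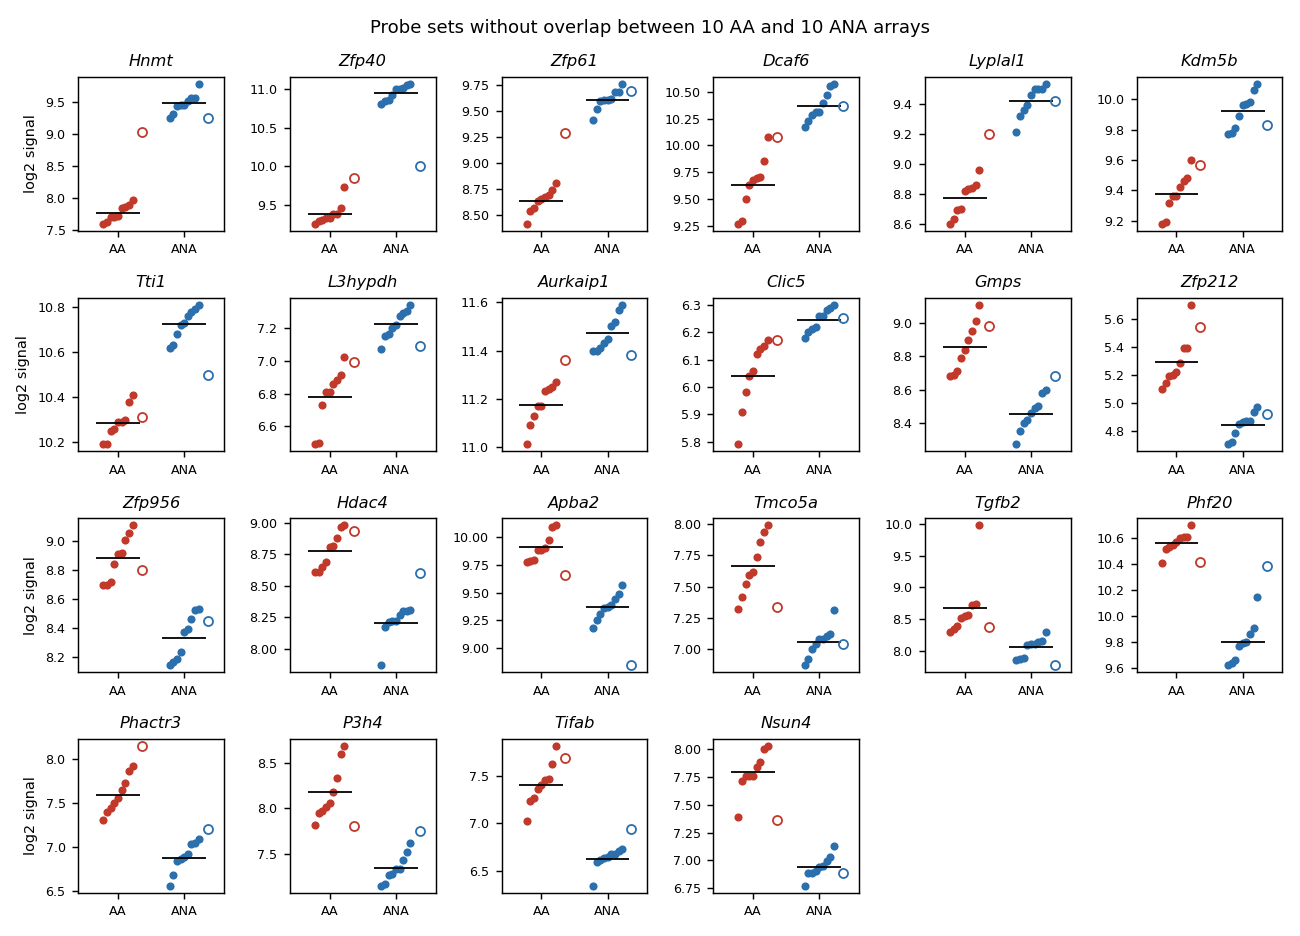
Log2 signal of every AA (red) and ANA (blue) array for the named probe sets whose 10 AA and 10 ANA arrays do not overlap, ordered by their difference. Filled points are 9 arrays per line sorted by value, lines their means, and open circles AA 19 and ANA 20; in Hnmt, AA 19 at 9.03 lies far above the other AA arrays, which reach 7.97.

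The largest differences were seen among probe sets that parted the 9 AA from the 9 ANA arrays. Plekhh1, a protein with pleckstrin homology domains, was at 8.59, 9.50 and 9.81 in AA and 6.05, 6.29 and 6.85 in ANA. All 9 AA arrays lay above all 9 ANA arrays, 7.87-fold apart on average (2.98 ± 0.15, limma adjusted p 2.17e-11). AA 19 was at 6.77, inside the ANA range, and with all arrays the difference was 2.74 ± 0.27 (adjusted p 4.10e-06). The other probe set of Plekhh1 had the opposite sign. Alb, albumin, was higher in AA on both probe sets. On the first, AA ran from 8.24 through 8.97 to 9.63 and ANA from 5.84 through 6.32 to 6.76, 6.90-fold apart (2.79 ± 0.18, adjusted p 1.63e-09). On the other the lines were 2.92-fold apart (1.54 ± 0.16).

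Pop5, a subunit of the ribonuclease P and MRP complexes, was at 8.45, 8.88 and 9.17 in AA and 5.98, 6.15 and 7.68 in ANA. It was 5.65-fold higher in AA (2.498 ± 0.174, limma adjusted p 5.68e-09), while its other probe set was called lower, at -0.5. Ccdc77, a coiled-coil protein, was higher on both probe sets, at 8.91, 9.02 and 9.23 in AA and 6.32, 6.77 and 7.02 in ANA on the larger one. The lines did not overlap in 9 against 9 (2.32 ± 0.07, adjusted p 2.95e-14, 5.00-fold), but AA 19 was at 6.53, which lowered the difference with all arrays to 2.09 ± 0.24. Chmp1b, a component of the ESCRT-III membrane-scission machinery, was 4.90-fold higher (2.29 ± 0.10, adjusted p 3.90e-12). Calls were made on all 4 Chmp1b probe sets, 3 higher and 1 lower. Grxcr1, known from hair cells of the inner ear, and Fam107a, an actin-binding stress-response protein, were 4.06-fold and 3.69-fold higher, at 2.02 ± 0.11 and 1.88 ± 0.13.

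Sc5d, a desaturase of cholesterol synthesis, was 3.51-fold higher on 1 probe set (11.10, 11.40 and 11.78 in AA against 9.41, 9.60 and 10.04 in ANA, 1.81 ± 0.08, limma adjusted p 9.71e-12). Its 3 probe sets did not all share that sign, and its brightest one was not called. Abca1, an exporter of cellular cholesterol, was 2.26-fold lower (-1.18 ± 0.18, adjusted p 0.000223), with 4 of 4 probe sets lower and 2 called. Osbpl3, an oxysterol-binding protein relative, was 2.64-fold higher (1.403 ± 0.128). None of 18 measured genes of cholesterol synthesis was called by its brightest probe set in either fit, and 1 had an unadjusted p under 0.05 in each.

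Among the lower genes, Fcrl2, an Fc receptor-like protein, was at 6.24, 6.65 and 7.12 in AA and 8.12, 8.97 and 9.37 in ANA. AA was 4.59-fold lower (-2.20 ± 0.15, limma adjusted p 6.18e-09), and the arrays AA 19 and ANA 20 were below both ranges, at 4.98 and 4.89. Wdr37, a WD-repeat protein, was 3.37-fold lower (-1.75 ± 0.21, adjusted p 1.22e-05) on 1 of its 2 probe sets, the other differing by 0.08 without a call, and Znrf1, a ubiquitin ligase known for axon degeneration, 3.22-fold lower on 1 of its 3 called probe sets (-1.69 ± 0.26), with the others called higher. Anapc10, a subunit of the anaphase-promoting complex, Eri2, an exonuclease, and Zfp317 were 2.97-fold, 2.66-fold and 2.62-fold lower. Siglec5, a sialic acid-binding receptor of myeloid cells, was at 5.60, 5.73 and 6.09 in AA and 6.44, 7.61 and 7.74 in ANA (-1.50 ± 0.16, adjusted p 2.33e-06), and both AA 19 (8.31) and ANA 20 (8.50) were above either range. Enpp1, an enzyme that hydrolyses extracellular ATP, was 2.82-fold lower, Amy1, an amylase, 2.68-fold, and Ildr2, an immunoglobulin-like membrane protein, by -1.43 and -1.34 as differences on separate probe sets. In the 9 AA arrays Amy1 ran from 3.97 to 4.37 and Eri2 from 4.68 to 5.09, where the lowest value of the data was 3.56. The folds of both rest on low signals in AA. Creg1, a lysosomal glycoprotein, and Rab22a, a small GTPase of endosomes, were 2.61-fold and 2.74-fold higher, Rab22a with 1 of its 3 probe sets called.

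Lists of genes of the transmitter systems had no or few calls. None of 13 measured dopamine genes was called by limma in either fit, 2 had an unadjusted p under 0.05 in 9 against 9, and their median was -0.02. Drd1 differed by 0.02 (limma adjusted p 0.982), Drd3 by -0.02 (0.944) and Slc6a3, the dopamine transporter, by -0.03 (0.915). Of 8 opioid genes 0 were called and 1 had an unadjusted p under 0.05: Penk differed by -0.02 (0.978), Pdyn by 0.08 (0.899) and Oprm1 by 0.02 (0.957). No call was made among 15 serotonin genes, 16 nicotinic and muscarinic receptors, 7 endocannabinoid genes, 29 genes of cyclic AMP signalling, 19 clock genes or 47 subunits of the respiratory chain and ATP synthase. In 9 against 9 the counts at an unadjusted p under 0.05 in these lists were, in that order, 0, 1, 0, 1, 4 and 1.

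**Figure D3:**
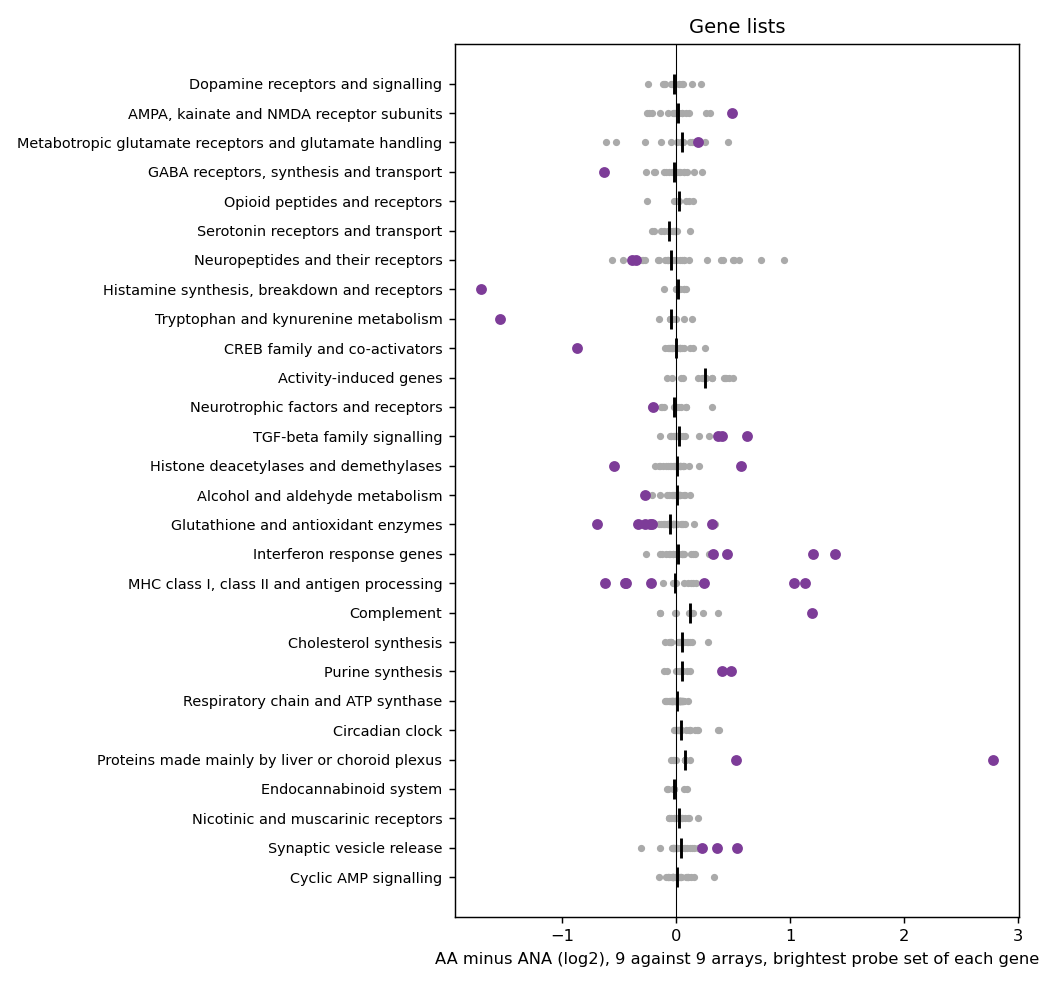
AA minus ANA differences (log2, 9 against 9 arrays) of every measured member of 28 pathway lists, 1 point per gene. Purple points were called and black bars mark the list median; Hnmt, Aadat and Alb (-1.72, -1.55 and 2.79) lie farthest from 0.

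In tryptophan metabolism, 1 of 11 measured genes was called. Aadat, an aminotransferase that makes kynurenic acid, an endogenous blocker of glutamate and nicotinic receptors, was at 6.52, 6.90 and 7.35 in AA and 7.98, 8.49 and 9.01 in ANA. The 9 AA arrays were all below the 9 ANA arrays, and ANA 20 was at 7.12, within the AA range. AA was lower by 2.93-fold (-1.55 ± 0.13, limma adjusted p 1.17e-07; all arrays -1.44 ± 0.17, adjusted p 3.18e-05). Kyat1 and Kyat3, other aminotransferases of the list, differed by -0.06 (adjusted p 0.806) and 0.07 (adjusted p 0.674) in 9 against 9. Kmo, the branch-point enzyme toward quinolinic acid, differed by 0.13 (adjusted p 0.297) and Tdo2 by -0.15 (adjusted p 0.395).

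Creb1, the transcription factor that binds cyclic AMP response elements, was the 1 called gene of 18 in its list. Of its 4 probe sets 3 were lower in AA, and 1 of these was called in 9 against 9. The called one measured 7.67, 8.09 and 8.34 in AA and 8.60, 8.87 and 9.30 in ANA, with no overlap in 9 against 9. The difference was -0.87 ± 0.10 (limma adjusted p 4.84e-06) and with all arrays -0.79 ± 0.11 (adjusted p 0.000166). Crem, its relative, differed by -0.07 (adjusted p 0.582) and Crebbp, its co-activator, by 0.05 (adjusted p 0.747). Activity-induced genes, many of them CREB targets, had no call among 16 measured and 3 with an unadjusted p under 0.05, and 14 of 16 had a positive difference in 9 against 9 and the list median was 0.26. Fos differed by 0.50 (adjusted p 0.564), Nr4a1 by 0.47 (0.274), Junb by 0.25 (0.409) and Jun by 0.22 (0.366).

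Glutamate and GABA receptor genes had single calls. Gria4, an AMPA receptor subunit, was the 1 of 17 ionotropic subunits called. It was higher on 3 of 3 probe sets, 1 of them called in 9 against 9. The called one was at 10.31, 10.48 and 10.95 in AA and 9.77, 10.09 and 10.26 in ANA. The lines were parted in 9 against 9, by 0.49 ± 0.09 (limma adjusted p 0.0016; all arrays adjusted p 0.00345). Gabrg1, a GABA-A receptor subunit, was the 1 of 18 GABA genes called, in 9 against 9 only: 6.62, 6.85 and 7.56 in AA against 7.28, 7.52 and 8.35 in ANA, which overlap (-0.63 ± 0.16, adjusted p 0.0278; all arrays 0.257). Slc1a1, a neuronal glutamate transporter, was called higher in 9 against 9 only, by 0.19 ± 0.05 (adjusted p 0.0468; all arrays 0.235), a call lost without AA 17 (adjusted p 0.0772), and its other probe set differed by -0.20 without a call. Slc1a2, the main astrocytic transporter, was called lower in 9 against 9 only (-0.28, adjusted p 0.05 after rounding; all arrays 0.289). Among 34 peptide genes, 11 had an unadjusted p under 0.05 in 9 against 9 and 6 with all arrays, without a share over all genes to set them against. Nmbr, a bombesin-family receptor, was called lower in both fits (-0.43 ± 0.09 with all arrays, adjusted p 0.0114). Ntsr2, a neurotensin receptor, was called lower in 9 against 9 (-0.36 ± 0.09, adjusted p 0.0163).

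Of 25 measured genes of vesicle release, 3 were called in 9 against 9, all higher: Apba2, on its brighter probe set as described above, Syn2, a synapsin that tethers vesicles (0.36 ± 0.06, limma adjusted p 0.00129, 3 of 3 probe sets positive), and Sv2b, a vesicle membrane protein (0.23 ± 0.05, adjusted p 0.0128). With all arrays Sv2b was not called (adjusted p 0.952). In the TGF-beta family 3 of 20 were called higher in 9 against 9, Tgfb2, the ligand Bmp6 (0.40 ± 0.09, adjusted p 0.0122) and the receptor Bmpr2 (0.36 ± 0.10, adjusted p 0.0496). Only 2 of the 4 Bmp6 probe sets had that sign, and 1 of these was called. Bmp6 and Bmpr2 were not called with all arrays (adjusted p 0.54 and 0.495), in which AA 19 was the lowest AA array for Bmp6 at 7.19 and the highest for Bmpr2 at 11.25. Purine synthesis had 2 of 10 called higher in both fits, Gmps and Gart, a trifunctional enzyme of the pathway (0.48 ± 0.07, adjusted p 0.000314); the other Gart probe set differed by -0.20 without a call. Erbb4, the neuregulin receptor, was the 1 called of 13 neurotrophic genes in 9 against 9 (-0.21 ± 0.06, adjusted p 0.0402) and was not called with all arrays (adjusted p 0.106), at levels of 4.69 to 5.21 in both lines.

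In glutathione and antioxidant enzymes, 5 of 38 measured genes were called lower and 1 higher in 9 against 9, against 2 and 1 with all arrays. Gsta4, a transferase that clears lipid peroxidation products, measured 9.28, 9.86 and 10.55 in AA and 10.15, 10.57 and 11.01 in ANA. Its ranges overlapped, and the difference was -0.69 ± 0.14 (limma adjusted p 0.00348; all arrays 0.0157). Nqo1, a quinone reductase, was lower by a smaller amount (-0.21 ± 0.04, adjusted p 0.00293; all arrays 0.00547). Prdx6, Gstm5 and Sod3, a peroxiredoxin, a transferase and the extracellular superoxide dismutase, were lower in 9 against 9 (-0.28, -0.34 and -0.24), and Gstm4 was higher in both fits (0.31 ± 0.07, adjusted p 0.0059). Aldh9a1, an aldehyde dehydrogenase, was the 1 called of 18 alcohol and aldehyde genes, in 9 against 9 only (-0.27 ± 0.07, adjusted p 0.02; all arrays 0.0662). Its ranges of 10.15 to 10.78 and 10.66 to 10.92 overlapped and the lowest array was AA 17. Aldh2, the main acetaldehyde-oxidising enzyme, differed by -0.21 (adjusted p 0.119).

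The list of interferon response genes had 4 of 25 called higher in 9 against 9 and none lower, with 2 of them called in all arrays. Ifi44l, an interferon-induced gene outside the list, was called lower in 9 against 9 (-0.30, limma adjusted p 0.0392, all arrays 0.36). Mx2, a dynamin-like antiviral GTPase, measured 8.15, 8.57 and 9.56 in AA and 6.37, 7.49 and 7.80 in ANA on its brighter probe set (2.62-fold higher, limma adjusted p 8.52e-05). AA 19 and ANA 20 were at 4.67 and 4.76 there, beside sP and sNP medians of 4.68 and 4.69, and with all arrays this probe set was not called (adjusted p 0.281). The other Mx2 probe set was called in both fits (1.66 ± 0.19 and 1.50 ± 0.25). Oas1b, of the oligoadenylate synthetase family, was at 5.29, 6.59 and 7.32 in AA and 4.97, 5.26 and 5.49 in ANA, with a small overlap (1.20 ± 0.19, adjusted p 0.000433; all arrays 0.0216). Rsad2 (viperin) was higher in 9 against 9 by 0.45 ± 0.12 (adjusted p 0.032) but was not called with all arrays (adjusted p 0.451). Irgm, an immunity-related GTPase, was higher by 0.32 ± 0.09 (adjusted p 0.0374, all arrays 0.0487). It was not called once AA 17 was left out of the 9 against 9 too (adjusted p 0.0602).

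Of 19 measured antigen presentation genes, 3 were called higher and 4 lower in 9 against 9, and 2 higher and 0 lower with all arrays. Cd74, the invariant chain of class II molecules, was at 7.38, 7.92 and 9.42 in AA and 6.53, 6.88 and 7.29 in ANA. All 9 AA arrays were above the ANA arrays (1.13 ± 0.20, limma adjusted p 0.00132; all arrays 0.00661). RT1-Da, a class II chain, followed at 1.04 ± 0.20 (adjusted p 0.00317; all arrays 0.021) and RT1-DMb, which loads peptide onto class II, at 0.25 ± 0.06 (adjusted p 0.0216; all arrays 0.244). RT1-Bb, another class II chain, was lower in 9 against 9 on the brighter of its 2 probe sets (-0.62 ± 0.10, adjusted p 0.000557), as were the immunoproteasome subunits Psmb9 (-0.45) and Psmb8 (-0.45) and the peptide transporter subunit Tap2 (-0.22). None of these 4 was called with all arrays (adjusted p 0.0925, 0.0939, 0.105 and 0.188). The other RT1-Bb probe set did not share the sign of the brighter one. C3, the central complement component, was 1 of 10 complement genes called, at 8.52, 9.13 and 9.98 in AA against 7.39, 7.83 and 8.44 in ANA, without overlap in 9 against 9 (1.19 ± 0.17, adjusted p 0.000146; all arrays 0.0372). Rbp4, the retinol carrier, and Alb were the called 2 of 11 genes of proteins made mainly by liver or choroid plexus in 9 against 9; with all arrays Alb alone was called and Rbp4 had an adjusted p of 0.208. Of 5 measured ependyma and choroid plexus markers none was called or had an unadjusted p under 0.05, and their list mean ran from 5.78 to 6.23 in the 20 arrays.

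Interferon-induced transcription factors bind a short repeat upstream of many of these genes, the interferon-stimulated response element. In RefSeq promoters of GRCr8, matched by symbol for 11733 of 14217 measured genes (250 bases before to 50 after the start), its core was searched on both strands. It was found in 2.99% of all promoters and 3.67% of those of the 463 genes called in 9 against 9, which is 17 genes, 7 higher and 10 lower in AA. The list below shows 3 higher and 2 lower genes, with 100 bases upstream of the start written 5′ to 3′ on the gene's strand and the matches in capitals, forward or as their reverse complement.
Oas1b, higher in AA, GRCr8 chr12:41395854-41395953, minus strand: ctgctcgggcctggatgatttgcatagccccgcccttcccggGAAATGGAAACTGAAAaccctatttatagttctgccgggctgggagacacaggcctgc
Rsad2, higher in AA, GRCr8 chr6:48788213-48788312, minus strand: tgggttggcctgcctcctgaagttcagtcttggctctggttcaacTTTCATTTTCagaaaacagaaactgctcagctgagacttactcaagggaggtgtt
Irgm, higher in AA, GRCr8 chr10:33742579-33742678, minus strand: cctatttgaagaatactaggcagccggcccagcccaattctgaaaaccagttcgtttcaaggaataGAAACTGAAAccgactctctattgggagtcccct
Tap2, lower in AA, GRCr8 chr20:4652297-4652396, minus strand: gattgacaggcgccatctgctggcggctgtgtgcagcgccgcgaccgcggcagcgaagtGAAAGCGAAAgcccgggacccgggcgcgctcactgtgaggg
Ctss, lower in AA, GRCr8 chr2:185775296-185775395, plus strand: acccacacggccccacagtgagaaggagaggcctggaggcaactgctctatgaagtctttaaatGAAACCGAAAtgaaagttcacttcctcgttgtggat

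Oas1b held 2 overlapping matches, the first beginning 59 bases before the start, and the match of Rsad2 began 147 bases before it. In Irgm, Tap2 and Ctss, which differed by 0.32, -0.22 and -0.33, the match began 34, 41 and 36 bases before the start. Ctss is cathepsin S, the protease that degrades Cd74. A match was thus present in genes higher and in genes lower in AA, and it describes these letters alone. The cyclic AMP response element TGACGTCA, searched because of Creb1, was in 2.86% of all promoters and 2.81% of those of called genes. The antioxidant response element core TGACNNNGC was in 14.4% and 14.7%.

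Cell type markers had few calls. Gfap, the astrocyte filament, was at 10.12, 10.51 and 11.31 in AA and 9.27, 9.59 and 10.27 in ANA (0.98 ± 0.17, limma adjusted p 0.00087; all arrays 0.92 ± 0.17, adjusted p 0.00289). The ranges overlapped slightly. It was the 1 of 8 astrocyte markers called higher, and S100b (-0.17) and Slc1a2 were called lower in 9 against 9 but not with all arrays. Oligodendrocyte markers had a median of -0.27 with 1 of 10 positive in 9 against 9, and 5 had an unadjusted p under 0.05 in each fit. Mal (-0.50 ± 0.12, adjusted p 0.0167) and Mobp (-0.41 ± 0.11, adjusted p 0.0321) were called lower in 9 against 9 but not with all arrays. The oligodendrocyte list mean was 11.51 to 12.46 in the 9 AA and 11.96 to 12.65 in the 9 ANA arrays, and its part in other results was not tested. Of 11 microglial markers, Aif1 was called higher in both fits (0.36 ± 0.09), on 1 of its 2 probe sets, and the other differed by -0.04. Itgam and Ctss were called lower in 9 against 9 (-0.33 and -0.33) but not with all arrays (adjusted p 0.115 and 0.235). Abcb1a, the drug-efflux pump of brain endothelium, was the 1 called of 8 endothelial markers, in 9 against 9 only (0.35 ± 0.08, adjusted p 0.0137; all arrays 0.0964). No spiny neuron marker of 14, no cholinergic interneuron marker of 3 and no other interneuron marker of 4 was called in either fit, and 0, 0 and 2 had an unadjusted p under 0.05 in 9 against 9. Of 7 measured pallidal, septal and basal forebrain markers 0 were called in either fit. Their median in 9 against 9 was -0.21, with 0 positive and 2 at an unadjusted p under 0.05.

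Some called genes lay next to each other. In the RefSeq gene order of GRCr8, in which 14204 genes were placed, 104 of 542 called genes (19.2%) had a called next gene on either side in 9 against 9, compared with 937 of 13662 genes that were not called (6.86%). With all arrays the shares were 40 of 258 (15.5%) and 470 of 13946 (3.37%). Among 57 neighbouring called pairs in 9 against 9, 29 had the same direction and 28 opposite directions. With all arrays there were 0 runs of 3 or more called genes. In 9 against 9 there were 8 such runs, holding 26 genes. In the longest, Tbx19, Sft2d2, Tiprl, Gpr161 and Dcaf6, the differences were -0.70, -0.41, 0.41, 0.50 and -0.73. Tbx19 is a pituitary transcription factor and Gpr161 a receptor that restrains Hedgehog signalling, and the call of Tiprl was lost without AA 17 (adjusted p 0.0511). RT1-Bb, Tap2 and Psmb8 formed a run in which all 3 were lower, RT1-Bb on 1 of its 2 probe sets. Rsad2 and its neighbour Cmpk2, a mitochondrial nucleotide kinase (0.27), were both higher, with Sox11, a neurogenic transcription factor, lower beside them (-0.58; adjusted p 0.0571 without AA 17). The other runs mixed directions: Pogk, Fam78b and Uck2 (-0.44, 0.22 and 0.27), Kdelr2, Zdhhc4 and Ints15 (0.18, -0.15 and 0.22), Sema6a, Dtwd2 and Dmxl1 (-0.50, 0.41 and -0.69), Rab27b, C18h18orf54 and Stard6 (-0.95, 0.34 and 0.27), and Cnn3, F3 and Abcd3 (-0.21, 0.40 and -0.16). Without AA 17 the calls of Zdhhc4, Sema6a and Abcd3 were lost (adjusted p 0.0748, 0.0605 and 0.0622). Sema6a had the sign given here on 3 of its 5 probe sets, and Dmxl1 on 1 of 2.

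Where a gene had several called probe sets they did not always agree. In 9 against 9, 73 genes had 2 or more called probe sets: 32 higher on all of these, 20 lower on all and 21 with calls in both directions. Zbtb20, a transcriptional repressor needed for hippocampal development, ranged from -1.47 to 0.93 over its probe sets, and Plekhm3, a lysosomal and endosomal adaptor, from -0.72 to 2.07. Genes with at least 3 probe sets, all called one way, were Zfp61 and Vwa8 (lower) and Mtus1 and Vps52 (higher). Mtus1, a microtubule-associated protein, was higher by 0.27, 0.26 and 0.37, and Vps52, a subunit of a Golgi tethering complex, by 0.31, 0.18 and 0.39. Vwa8, a mitochondrial ATPase, differed by -0.58, -0.54 and -0.28. With all arrays the limma adjusted p, in the same order, was 0.652, 0.176 and 0.0495 for Vps52 and 0.116, 0.00344 and 0.0921 for Vwa8. The probe sets of Zfp61 and Mtus1 were all called there too. Signals were low on the Vps52 probe set that differed by 0.18, at 4.30 to 4.72 in AA and 4.23 to 4.45 in ANA. Of the 3 Vps52 calls in 9 against 9, 1 was lost without AA 17 (adjusted p 0.0531).

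The AA minus ANA difference itself was set against the mean difference of the other 4 line pairs in a limma fit over all 97 arrays. It departed in 983 probe sets (3.17%), 472 more positive and 511 more negative, and in 1362 (4.39%) without AA 19 and ANA 20. Both fits kept sP 4 and sNP 4, which correlated with each other at 0.9982. On the scale from sNP (0) to sP (1) these arrays lay at 0.566 and 0.365. A contrast without them was not run. Hnmt departed by -1.66 ± 0.11 (adjusted p 1.46e-21), and its difference was 0.27 in P minus NP, 0.01 in HAD1 minus LAD1, 0.05 in HAD2 minus LAD2 and 0.03 in sP minus sNP. Wdr37 (-1.55 ± 0.17) and Znrf1 (-1.54 ± 0.18) were within 0.13 of 0 in each of the other pairs, each on 1 probe set whose sign the gene's other probe sets did not share. Zfp317 (-1.48 ± 0.17) lay between 0.12 and 0.48 there. Eri2 departed by -1.56, Anapc10 by -1.76, Amy1 by -1.86 and Fcrl2 by -2.45. The other pairs added to some of these departures. Amy1 was higher in HAD1 than in LAD1 by 2.221, more than the size of its AA minus ANA difference of -1.20 with all arrays, Anapc10 was higher in HAD2 by 1.186 and Fcrl2 in HAD2 by 2.148.

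On the positive side, Alb departed by 2.54 ± 0.65 (limma adjusted p 0.00906), with differences of 0.59, -1.78, 1.13 and 0.07 in P/NP, HAD1/LAD1, HAD2/LAD2 and sP/sNP. Chmp1b departed by 2.47 ± 0.31, Pop5 by 2.32 ± 0.41, Rab22a by 2.125 ± 0.199, Grxcr1 by 1.98 ± 0.26, Plekhh1 by 1.97 ± 0.54, Eeig2 by 1.81 ± 0.43, Plekhm3 by 1.80 ± 0.33, Ccdc77 by 1.77 ± 0.21 and Fam107a by 1.76 ± 0.24. Several of these also differed in other pairs. Chmp1b was lower in HAD2 (-1.28) and sP (-1.51), Pop5 was lower in P (-1.60) and higher in HAD1 (1.53), and Ccdc77 was higher in P (1.43) than in the paired line. Eeig2 differed by -1.63, -1.18, 1.212 and -1.67 in P/NP, HAD1/LAD1, HAD2/LAD2 and sP/sNP, and by 0.99 between AA and ANA with all arrays (adjusted p 0.0979). The AA minus ANA sign of Eeig2 was positive on 1 of its 2 probe sets. Plekhh1 was also higher in HAD1 (2.28) and HAD2 (1.68) and lower in P (-1.08) than in the paired line. Rab22a was lower in HAD1 (-1.52) and HAD2 (-1.57), near 0 in the others. Lysmd4 (-1.94) and RT1-T24-4 (-1.53) departed but were not called between AA and ANA (adjusted p 0.245 and 0.559 in 9 against 9) on the probe sets of the contrast. Lysmd4 has 4 probe sets, of which 2 others were called higher in AA in 9 against 9 (0.45 and 0.54). On the probe set of the contrast Lysmd4 was higher in HAD2 by 3.43 and in sP by 2.78, and RT1-T24-4 was higher in HAD2 by 2.33.

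**Figure D4:**
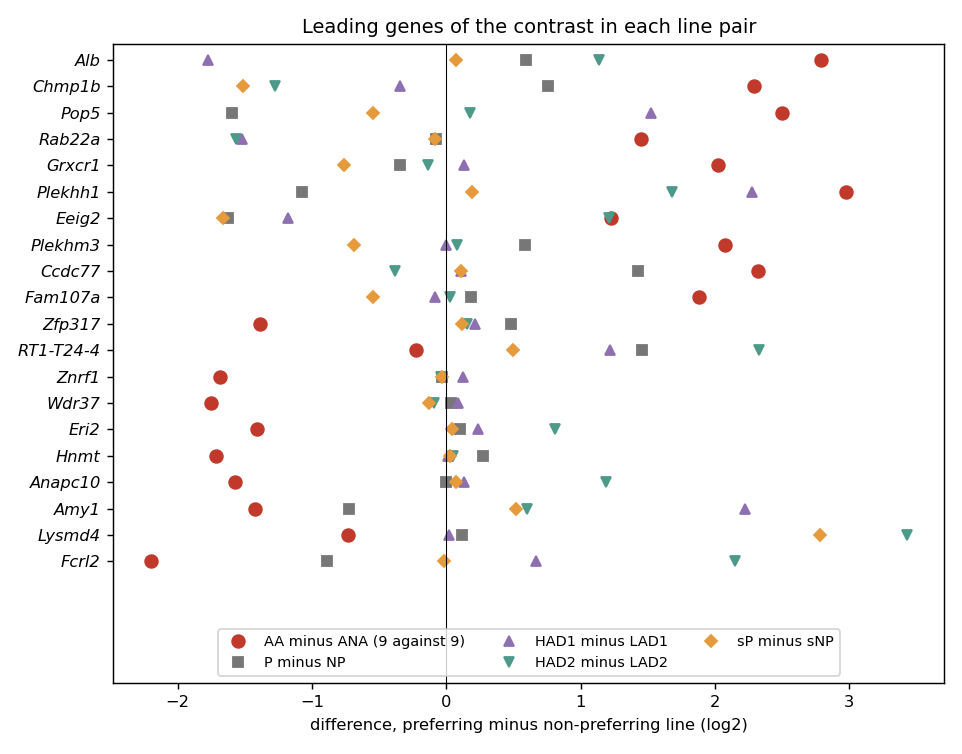
Difference of the preferring minus the non-preferring line (log2, horizontal) in each of 5 line pairs for the 20 genes named from the contrast, ordered by that contrast, each on 1 probe set. Hnmt, Wdr37 and Znrf1 are far from 0 in AA minus ANA (red, 9 against 9) and near 0 in the other pairs, whereas Lysmd4 is farthest from 0 in HAD2 minus LAD2 at 3.43.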

How the data were processed

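RNA from the nucleus accumbens shell was measured on Affymetrix rat 3' arrays. Trizol extraction, RNeasy cleanup and a standard Affymetrix amplification in a pair of cycles, ending in biotin-labelled cRNA, are given per the labels' protocols. The deposited values are log2 signals that the authors summarised with RMA, per the submitters' processing notes; the log base is read from their range (3.56 to 16.06). They were used as deposited. The 57 AFFX controls were left out of 31099 probe sets. Detection calls and the genome build are not given in the sources used here, and the number of arrays limits the precision.

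Groups came from the labels. AA minus ANA was fitted with limma 3.58.1 in R 4.3.3 (lmFit, eBayes, two-sided) on the 20 arrays alone, and again without AA 19 and ANA 20; the contrast with the other pairs used 1 mean per line. Of the tested probe sets 20826 carried 1 symbol, 436 several and 9780 none; only those with 1 symbol were named. On simulated data of 10 against 10 arrays with 100 changed probe sets per size, 88 were recovered at a change of 0.5 log2 and 100 at a change of 1. The simulated spread left out AA 19 and ANA 20. These counts therefore do not give the recovery of the fit with both arrays, which called 728 probe sets against 1378 without them.

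Genes were named by rule: up to 12 per direction among calls without overlap in 20 arrays, up to 15 in 9 against 9, up to 6 members of each of 28 pathway lists and the cell type lists with the smallest adjusted p, up to 10 per direction of the contrast, genes with at least 3 probe sets called one way, and runs of neighbouring calls. Zbtb20 and the list genes given with values but not called lie partly outside it and were chosen after their values were seen. Members and lists were chosen with earlier results of these data known. Alternatives changed the arrays, scaling, filter, variance model, covariates and weights; the one without AA 17 was chosen after seeing the data. Promoters are RefSeq sequences of GRCr8.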

Additional observations from a re-analysis of the deposited data

Results flagged for a closer look

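Within each line, 252 groups of 10 arrays (123 named probe sets and 3 array measures, in AA and in ANA) were searched for an array far from the others by Dixon's criterion at its 95% critical value, which chance passes in about 1 in 20 groups that were not chosen on these arrays. It was passed 71 times, 29 times by AA 19 and 29 times by ANA 20. These counts cannot be set against that rate: 40 of the probe sets, many of them named for it, part 9 AA from 9 ANA arrays and overlap in 20, so that AA 19 or ANA 20 must lie outside its line there, and 17 of the values of AA 19 and 14 of those of ANA 20 come from them. Where a gene has several values, they are separate probe sets. AA 19 was far above the other AA arrays, in log2 signal, in Hnmt (9.03), Zfp61 (9.29, 7.94 and 10.45), Enpp1 (8.70), Ildr2 (10.58 and 8.40), Siglec5 (8.31), Amy1 (6.52), Ctss (13.61) and Gabrg1 (8.43). The same array was also far above in Ntsr2 (13.29) and Kdelr2 (11.25). AA 19 was far below the other AA arrays in Ccdc77 (7.92 and 6.53), Creg1 (8.0), Mx2 (4.67), Chmp1b (7.87), Fcrl2 (4.98), Grxcr1 (6.37), Plekhh1 (6.77) and Bmp6 (7.19). It was far below in C3 (6.89), Rbp4 (9.74), Syn2 (11.13), Vps52 (6.88), F3 (7.68) and Stard6 (7.27). ANA 20 was far above the other ANA arrays in Alb (7.50 and 8.55), Osbpl3 (8.40), Sc5d (11.39), Chmp1b (9.70), Fam107a (12.93), Rab22a (8.75), Bmpr2 (11.22) and Rsad2 (8.08). High values of it were also seen in Eeig2 (11.13) and Ints15 (9.77). ANA 20 was far below the other ANA arrays in Zfp40 (10.01), Mx2 (4.76), Anapc10 (5.61), Eri2 (4.67), Fcrl2 (4.89), Zfp317 (9.0), Oas1b (4.47) and Prdx6 (11.69). That array was also low in Psmb9 (7.06), Sod3 (7.84), Psmb8 (7.27), RT1-Bb (5.86), Tap2 (7.61), Lysmd4 (5.39), Vps52 (7.30) and Vwa8 (8.91). A further low value of it was that of Zdhhc4 (9.02). The Gapdh 3' minus 5' value of AA 19 was 0.54 against at most 0.13 in the other AA arrays, and the cortical marker mean was 8.20 in AA 17 and 5.33 in ANA 20. Single values of other arrays far from their line were Tgfb2 in AA 17 (9.98), Aldh9a1 in AA 17 (10.15), Irgm in AA 5 (7.42), Itgam in AA 7 (6.97), Mobp in AA 17 (13.28), RT1-Da in AA 1 (9.18), Lysmd4 in AA 9 (5.21) and Vwa8 in AA 3 (8.31). There were also Abca1 in ANA 12 (11.61), Aif1 in ANA 16 (9.19), Fam78b in ANA 12 (7.87) and Tiprl in ANA 2 (8.17).

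In 983 probe sets the AA minus ANA difference departed from the mean difference of the other 4 line pairs (limma, adjusted p under 0.05). The most negative departures among named genes, in log2 units, were Fcrl2 (-2.45), Lysmd4 (-1.94, 1 of its 4 probe sets), Amy1 (-1.86), Anapc10 (-1.76), Hnmt (-1.66), Eri2 (-1.56), Wdr37 (-1.55) and Znrf1 (-1.54). They were followed by RT1-T24-4 (-1.53) and Zfp317 (-1.48). The most positive departures were Alb (2.54), Chmp1b (2.47), Pop5 (2.32), Rab22a (2.125), Grxcr1 (1.98), Plekhh1 (1.97), Eeig2 (1.81) and Plekhm3 (1.80). Next came Ccdc77 (1.77) and Fam107a (1.76).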

How the results depend on the processing

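No paired analysis was possible because the AA animals carry odd numbers and the ANA animals even ones, so that the lines share none and the labels state no pairing; neighbouring numbers were not taken as pairs. The count of 728 called probe sets became 1378 without AA 19 and ANA 20 and 1637 with limma array weights; leaving out 1 array at a time it ran from 577 (without ANA 10) to 1080 (without AA 19). Centring gave 701, quantile normalization 760, leaving out the dimmest 25% of probe sets 693, trend and robust settings 714, a fit over all lines 1040, and the Gapdh and marker covariates 975 and 982. The 48 probe sets without overlap became 375 without both arrays, and ran from 47 to 204 without 1 array, with 202 without AA 19 and 204 without ANA 20. The 1378 calls of 9 against 9 stayed within 1.5 times under the alternatives run, at 1326 to 1758, and at 1173 to 1445 without 1 array; without AA 17 there were 1310, of which 1205 were among the 1378. The contrast with the other pairs gave 932 without the dimmest 25% and 1362 without both arrays, against 983. None of the 123 named probe sets changed sign while called under the alternatives run. Of the 83 called with all arrays, centring lost 4, quantile normalization 3, trend and robust settings 5 and the fit over all lines 7, and between 1 and 10 were lost when 1 array was left out. The cause of these moves was not tested.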

Other observations

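Among all 97 arrays the most similar pair was sP 4 and sNP 4, 2 arrays of different lines, which correlated at 0.9982 across probe sets; the highest correlation among the 20 AA and ANA arrays was 0.9973. In the 20 AA and ANA arrays the mean of the Y-linked markers ran from 9.99 to 10.60.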
